A study of Mus musculus with 8 samples.

Results

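The genes described here encode heat shock proteins and the cochaperones that work with them. They were taken by name from the array annotation: heat shock genes of the Hspa, Hspb, Hspd, Hspe, Hsph and Hsp90 series, the Dnaja, Dnajb and Dnajc genes, the chaperonin genes Cct2 to Cct8, and Bag1 to Bag6. The endoplasmic reticulum members Hspa5, Hsp90b1, Dnajb9, Dnajb11, Dnajc3 and Dnajc10 were left out. This gave 82 genes on 148 probes, out of 28104 genes on 41174 probes. The name rule is wider than the cytosol: it also took mitochondrial chaperones such as Hspd1 and Hspa9 and membrane-bound J proteins such as Dnajb12. Bag6 did not qualify, because the array lists it under an older name.

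Heat shock proteins are molecular chaperones, which bind unfolded polypeptides and help them fold, refold or be degraded. Hsp70 proteins work in cycles of ATP hydrolysis that J-domain proteins (the Dnaj genes) start and nucleotide exchange factors (the Hsp110 and Bag proteins) complete, while Hsp90 acts later on signalling proteins and the chaperonin ring TRiC folds actin and tubulin. Some of these genes are expressed at all times. Others are switched on by heat shock factor 1, HSF1, when unfolded protein accumulates.

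Pregnant C57BL/6J mice were given 50% of the chow that controls ate, from gestation day 10 to 17, and controls ate freely. Livers were taken on day 18 from 6 mothers per diet and from 2 male fetuses of each mother, and RNA was hybridised to 2-colour Agilent arrays, with food-restricted (FR) and control RNA on the same array. Each pair of pools was run on 2 arrays with the dyes exchanged, and the 2 arrays were averaged into 1 value. Maternal liver has 1 such pair, from pools of 6 animals per diet. Fetal liver has 3 pairs: 1 from pools of 6 and 2 from pools of 3. The labels do not say which animals went into which pool, so fetal pools may share litters or animals, and p-values measure only the spread between the 3 pool pairs. The maternal pair and the 6-animal fetal pair were on slide 1 and the 3-animal pairs on slide 2, so pool size and slide cannot be told apart. One line of the sample descriptions speaks of rat hippocampus, which goes against the titles and the mouse array design. In bulk liver, fewer cells of a type and less RNA per cell cannot be told apart.

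All values below are log2 ratios of FR over control unless called a level. Fetal changes were called by limma over 21097 genes at an adjusted p under 0.05. Maternal liver has no replicate and no test, so a maternal change was called where both arrays showed at least a 2-fold difference in 1 direction. Of 7 hepatocyte marker genes 6 were measured, with a mean log2 intensity of 14.6 in both maternal pools and 15.5 to 16.1 in the fetal pools. One of them, Afp, was dim in the maternal pools, at 7.9 in control and 8.7 in FR, against 16.6 to 17.1 in the fetal pools. The others were bright in all pools. Erythroid markers had mean levels of 15.4 to 15.9 in fetal and 11.1 to 11.5 in maternal liver, over 5 genes measured in both.

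The promoters of the heat-inducible genes were searched for the heat shock element, the word that HSF1 binds. The sequences are RefSeq's, from the mouse build GRCm38.p6, and cover the 250 bases before the most upstream start of each gene. The words searched, on both strands, were a 2-unit word, GAANNTTC or TTCNNGAA, and a 3-unit word, GAANNTTCNNGAA or TTCNNGAANNTTC, which always contains the 2-unit word. Of 27025 genes with a promoter entry, 13.0% held the 2-unit word and 0.403% the 3-unit word. The heat-inducible list held the 2-unit word in 5 of 7 genes with an entry, the chaperonin list in 1 of 7 and the constitutive list in 1 of 9. The mitochondrial and small heat shock protein lists each held it in 1 of 5. Of the genes around HSF1 described below, 1 of 10 with an entry held it, Fkbp4. Chordc1, Serpinh1, Ahsa1, Ahsa2 and Stip1, all called lower in fetal liver, did not. The stretches below show the word in capitals with the bases around it, 5′ to 3′ along each gene, for the 5 heat-inducible genes that held it. In fetal liver 4 of these 5 genes fell and the fifth, Hspb1, rose. A link between the word and the change was not tested.
Hsph1: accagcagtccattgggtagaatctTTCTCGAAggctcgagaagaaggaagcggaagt
Hspa1a: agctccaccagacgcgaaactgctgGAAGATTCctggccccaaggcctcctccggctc
Hspa1b: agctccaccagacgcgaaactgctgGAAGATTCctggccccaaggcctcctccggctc
Dnaja1: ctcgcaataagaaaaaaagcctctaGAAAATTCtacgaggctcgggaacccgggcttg
Hspb1: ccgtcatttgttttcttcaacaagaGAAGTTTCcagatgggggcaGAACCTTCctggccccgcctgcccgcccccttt
These lie at chr5:149636337-149636394 on the minus strand for Hsph1, chr17:34972228-34972285 and chr17:34959310-34959367 on the minus strand for Hspa1a and Hspa1b, chr4:40722319-40722376 on the plus strand for Dnaja1 and chr5:135887777-135887854 on the plus strand for Hspb1. The whole 250-base windows of Hspa1a and Hspa1b were identical at 247 positions. Dnajb1 and Bag3 had no such word in this window, and their fetal means were also below 0, at -0.50 and -0.12. The 3-unit word was found in 2 of the 66 heat shock genes with an entry, and both are shown because neither belongs to the heat-inducible list.
Dnajb6: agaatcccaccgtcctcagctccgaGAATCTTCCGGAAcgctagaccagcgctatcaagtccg
Hspe1: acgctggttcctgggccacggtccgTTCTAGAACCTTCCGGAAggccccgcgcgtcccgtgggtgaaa
They lie at chr5:29735827-29735889 and chr1:55088034-55088101, both on the plus strand. A match is a run of letters and not a measured binding site.

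In fetal liver, the heat-inducible genes were mostly lower under FR, the chaperonin genes slightly higher, and the constitutive genes divided. Of 80 heat shock genes measured in fetal liver, 20 were called higher and 16 lower; over all genes tested, 11.4% were called higher and 14.2% lower. The 2 not measured were Dnajb7 and Hspb3. Among the 8 heat-inducible genes, 5 were called lower and 1 higher, with a median of -0.43. Among the 8 chaperonin genes, 4 were called higher and none lower, with a median of 0.14. Among the 12 constitutive genes, 2 were called higher and 2 lower, with a median of 0.06. The median over all genes was 0.011. The lists were chosen with earlier results of these data known, so their medians are descriptions.

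The number of fetal calls depended on which pool pairs entered. Without the 6-animal pair, limma called no gene of any kind, and 20 heat shock genes above and 15 below 0 had an unadjusted p under 0.05. Over all genes, 13.4% were above and 15.5% below 0 at that p. Without the first 3-animal pair, 11 were called higher and 11 lower, and without the second, 18 and 20. Without loess normalisation, which corrects dye bias that varies with brightness, 2 were called higher and 13 lower, against 714 higher and 2259 lower over all genes. Scaling the arrays to a common spread left no call.

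The list medians were similar in the 3 fetal pool pairs. For the heat-inducible genes they were -0.47 in the 6-animal pair, -0.45 in the first 3-animal pair and -0.32 in the second. The chaperonin medians were 0.19, 0.11 and 0.17 in the same order. The constitutive medians were 0.08, 0.08 and 0.06. The medians did not stay apart when spots with non-uniform pixels were left out, but that setting changes the genes and probes. Over the 4 heat-inducible, 2 chaperonin and 4 constitutive genes then measured, the medians were -0.17, -0.19 and -0.21. Of the probes that stood for heat shock genes in fetal liver, 50 carried such a flag on slide 1. Cct4, for example, was then read from a dimmer probe, at -0.45 in place of 0.10.

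**Figure D1:**
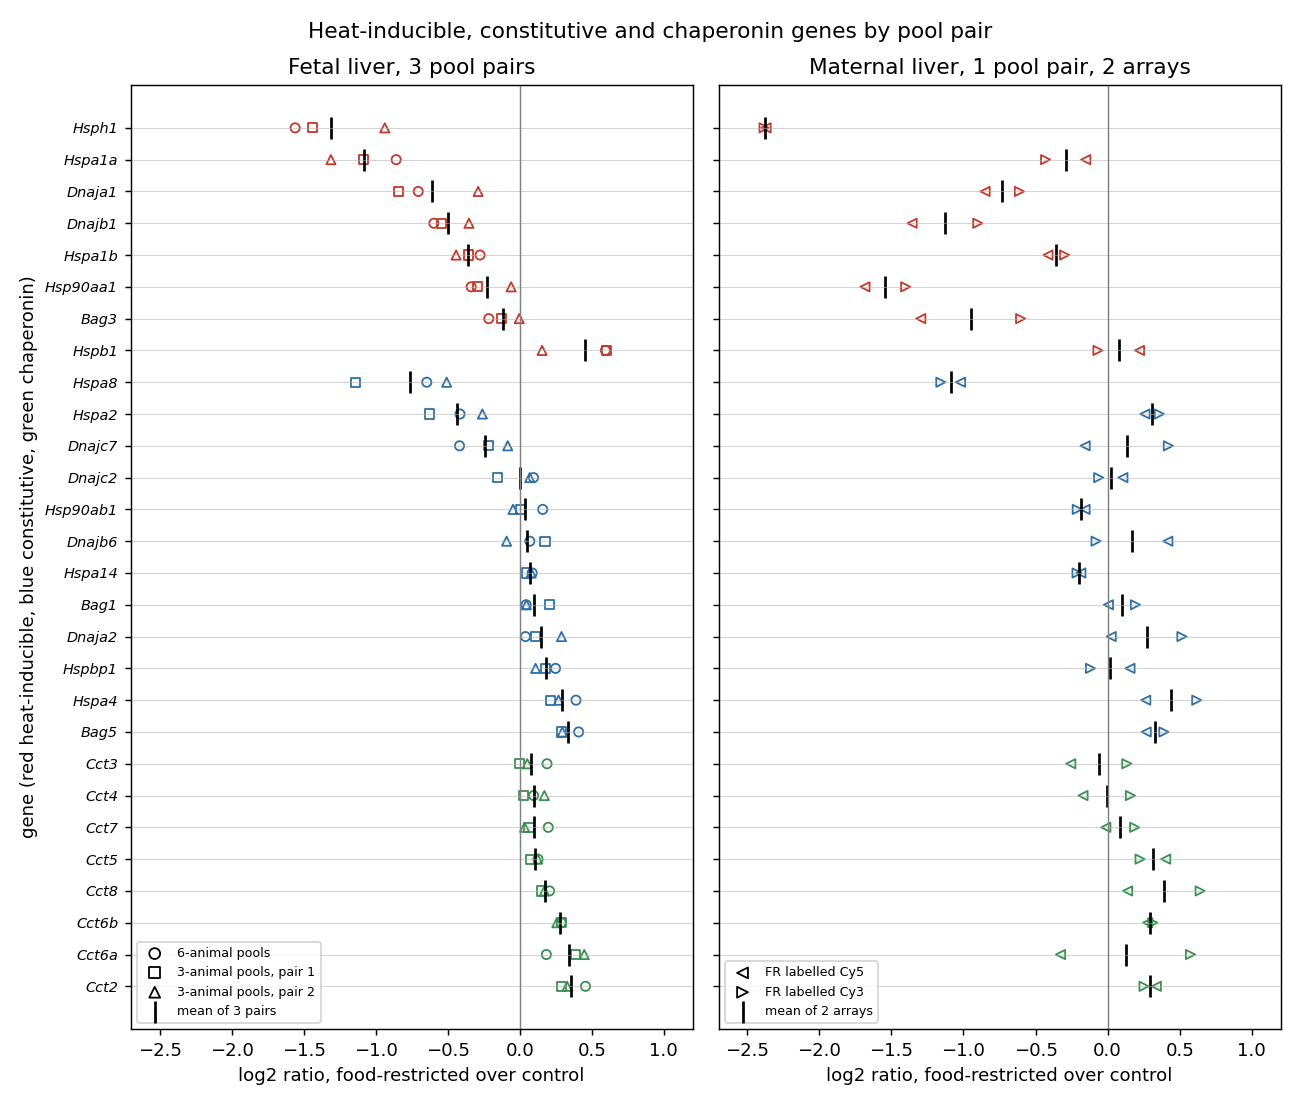
Log2 ratios of FR over control for 28 genes of the heat-inducible (red), constitutive (blue) and chaperonin (green) lists, with fetal pool pairs on the left and the 2 maternal arrays on the right; black bars are means. Of the 8 heat-inducible genes 7 lie below 0 in both panels, and the chaperonin genes lie at or above 0 in fetal liver.

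With each gene read from its brightest probe, Hsph1, which encodes the Hsp110 exchange factor for Hsp70, fell most of the heat shock genes. Its fetal ratios were -1.56 in the 6-animal pair, -1.44 in the first 3-animal pair and -0.94 in the second. All 3 pairs were thus well below 0, with a mean of -1.31 ± 0.33 (SD, n = 3), a 2.48-fold decrease (limma, adjusted p = 0.00689). In maternal liver the arrays gave -2.37 and -2.38, a 5.19-fold decrease and the largest of the measured heat shock genes there. The difference between the maternal and fetal ratios was -1.06 with an SE of 0.26 (limma, adjusted p = 0.0941), which missed the threshold. The fetal call held in 9 of 11 alternative analyses and the maternal call in 8 of 8.

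Hspa1a, one of the stress-inducible Hsp70 genes, had fetal ratios of -0.86, -1.08 and -1.31, with the 6-animal pair first. The mean was -1.08 ± 0.23 (SD, n = 3; limma, adjusted p = 0.00563), a 2.12-fold decrease. Its other probe gave nearly the same mean of -1.11 ± 0.12. In maternal liver the decrease was smaller, at -0.15 and -0.43 on the 2 arrays. The maternal minus fetal difference was 0.79 with an SE of 0.19 and an adjusted p of 0.0898 in limma, so the smaller maternal change was not separated from the fetal one.

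Hspa1b, its near-identical neighbour, is measured by probes that also list the Hspa1a transcript, so their signal can come from either gene. The probe above background and the dimmer one, in that order, read as follows and are shown because 2 RefSeq transcripts match each.
A_52_P52803: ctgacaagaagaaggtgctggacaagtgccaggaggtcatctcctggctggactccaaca
A_52_P304902: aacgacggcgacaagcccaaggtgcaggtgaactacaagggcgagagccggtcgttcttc
They lie at chr17:35094200-35094259 and chr17:35095608-35095667 in mm9, the build named in the slide 1 files. The measured probe was itself dim, with a mean log2 intensity of 7.2. It gave -0.28, -0.35 and -0.44 in the fetal pairs (mean -0.36 ± 0.08, limma adjusted p = 0.0123, n = 3). Its maternal arrays gave -0.41 and -0.30.

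The J-domain genes Dnaja1 and Dnajb1, whose products deliver clients to Hsp70, fell in fetal liver too. Dnaja1 had ratios of -0.70, -0.84 and -0.29, with the second 3-animal pair nearest 0 (mean -0.61 ± 0.29, n = 3; limma, adjusted p = 0.0209). Its maternal arrays gave -0.85 and -0.61. Dimmer Dnaja1 probes had smaller fetal means of -0.33 and -0.25 (limma over all passing probes, adjusted p = 0.0392 and 0.0676). In the maternal pair they gave -0.93 and -0.85. Dnajb1 had ratios of -0.60, -0.54 and -0.35 (mean -0.50 ± 0.13, n = 3; limma, adjusted p = 0.00985). Its maternal arrays gave -1.36 and -0.90, 1 on each side of the 2-fold limit. A dimmer Dnajb1 probe stood near 0, at -0.05 ± 0.15 in fetal and -0.05 in maternal liver, so the gene's change rests on 1 probe.

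Hsp90aa1, called lower in maternal liver, and Bag3, called in neither, had no called fetal change. Hsp90aa1 encodes the inducible cytosolic Hsp90. Its fetal ratios of -0.34, -0.29 and -0.06 averaged -0.23 ± 0.15 (n = 3; limma, adjusted p = 0.0665). On the maternal arrays its ratios were -1.68 and -1.40, a 2.91-fold decrease. Bag3, an exchange factor that links Hsp70 to autophagy, had fetal ratios of -0.22, -0.13 and -0.0038 (limma, adjusted p = 0.199). Its maternal arrays gave -1.30 and -0.60. Its dimmer probe averaged 0.0206 in the fetal pairs and -0.38 in the maternal pair. The maternal minus fetal difference was -1.31 with an SE of 0.14 for Hsp90aa1 (limma, adjusted p = 0.0189) and -0.83 with an SE of 0.12 for Bag3 (limma, adjusted p = 0.0332). This contrast has no maternal replicate: it assumes that the lone maternal pair varies like the fetal pairs, so it does not show that mother and fetus respond differently. Neither difference was called without the 6-animal fetal pair or without loess.

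Hspb1, the small heat shock protein also called Hsp25, was the heat-inducible gene that rose. Its fetal ratios were 0.59, 0.60 and 0.15, with a mean of 0.45 ± 0.26 (n = 3; limma, adjusted p = 0.0345). The maternal arrays stood on both sides of 0, at 0.22 and -0.07. The gene was called in 8 of 12 alternatives, and not without the 6-animal pair, without the first 3-animal pair, without loess or after scaling.

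**Figure D2:**
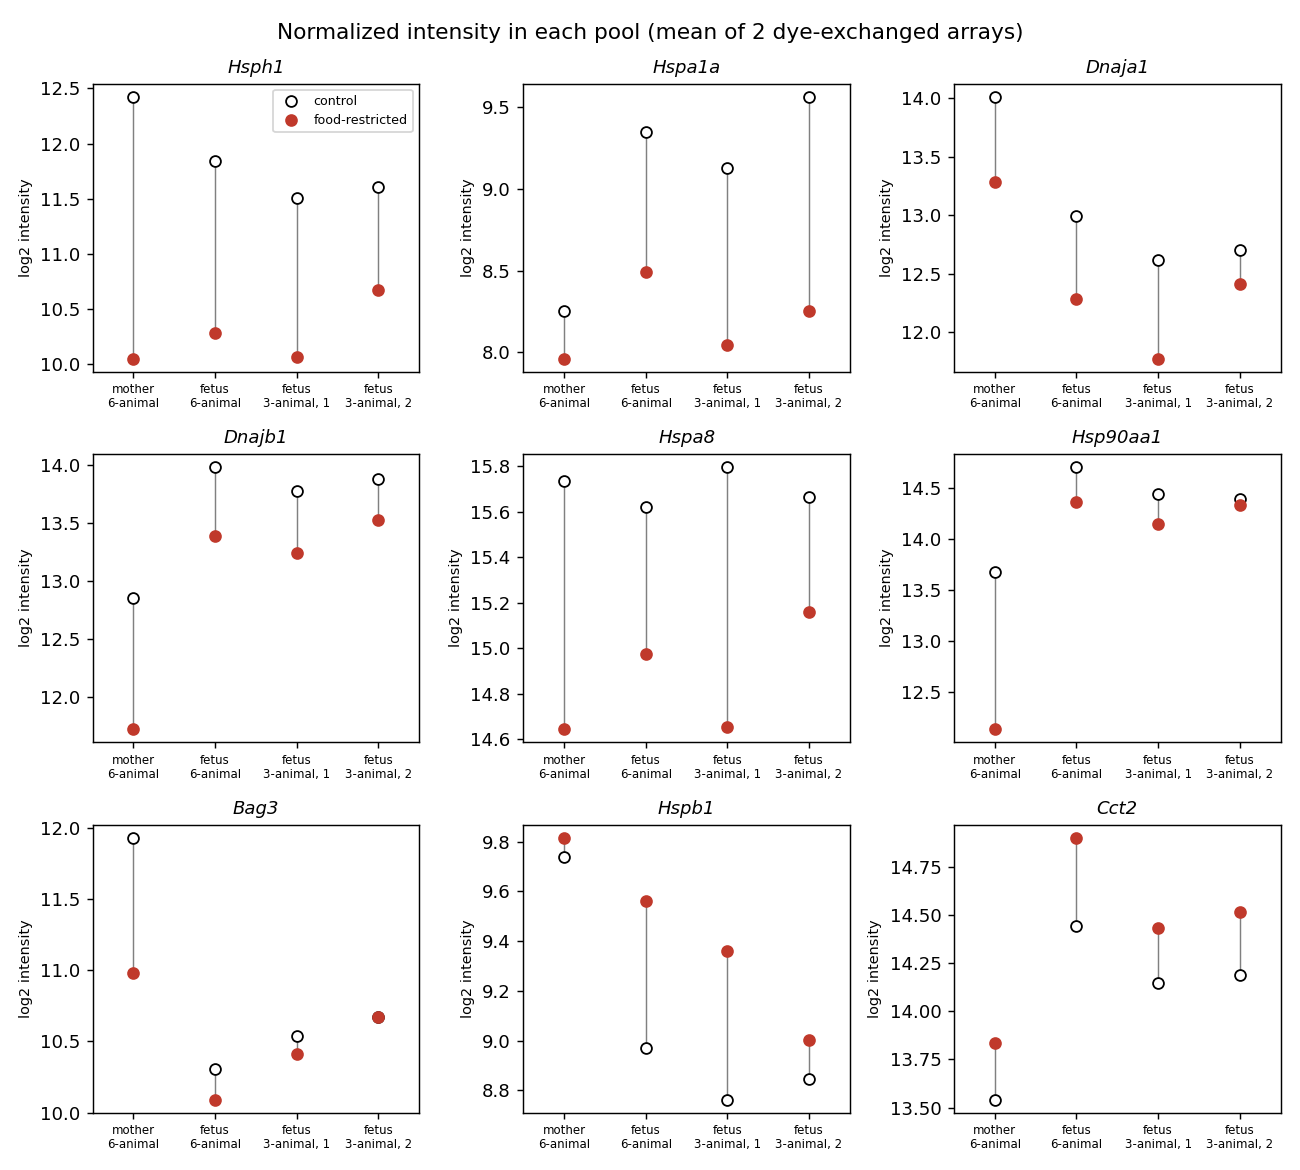
Normalised log2 intensity of 9 genes in each control (open) and FR (red) pool, each the mean of 2 dye-exchanged arrays; vertical scales differ between genes and do not start at 0. For Hsph1 the 4 FR pools lie between 10.0 and 10.7 and the 4 control pools between 11.5 and 12.4, and for Bag3 only the maternal pools lie clearly apart.

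The levels of Hsph1 did not overlap between diets. Its log2 intensity was 12.4 in the maternal control pool and 11.8, 11.5 and 11.6 in the fetal control pools. The FR pools had 10.0, 10.3, 10.1 and 10.7 in the same order. For Hsp90aa1 the maternal level went from 13.7 to 12.1, while the fetal pools lay between 14.1 and 14.7 on either diet. The maternal pair has no replicate, so these levels do not show that mother and fetus respond differently.

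The cytosolic chaperonin TRiC is a double ring of related subunits, and all 8 measured Cct genes had fetal means above 0, from 0.08 to 0.36. Cct2 had ratios of 0.46, 0.29 and 0.33 (mean 0.36 ± 0.09, n = 3; limma, adjusted p = 0.0129). Cct6a had 0.18, 0.39 and 0.45 (mean 0.34 ± 0.14, adjusted p = 0.0230 in limma). Cct6b, described as the testis form of that subunit, had 0.29, 0.29 and 0.26 (mean 0.28 ± 0.02, adjusted p = 0.0139 in limma). Cct8 had 0.21, 0.15 and 0.17 (mean 0.18 ± 0.03, adjusted p = 0.0422 in limma), and was called in 3 of 11 alternative analyses. These 4 genes kept their sign in every alternative that measured them. Cct3, Cct4, Cct5 and Cct7 had means of 0.08, 0.10, 0.11 and 0.10 and did not pass the test. Without loess none of the 8 was called and 4 had means below 0, with a list median of 0.016 against -0.013 over all genes. The size of the list's shift, and the sign of 4 of its genes, thus depended on the dye correction.

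In maternal liver the chaperonin median was 0.21, and no Cct gene reached 2-fold. Both arrays were above 0 for Cct2, Cct5, Cct6b and Cct8, with means of 0.30, 0.31, 0.30 and 0.39. The other 4 genes had arrays of opposite sign, as for Cct6a with -0.33 and 0.58. A second, dimmer probe of Cct4 went against its main probe, at -0.45 ± 0.12 in fetal liver (n = 3; limma over all passing probes, adjusted p = 0.0108).

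The constitutive genes had no common direction. Hspa8, the constitutive Hsp70 of the cytosol, fell: its fetal ratios were -0.65, -1.14 and -0.51, with a mean of -0.76 ± 0.33 (n = 3; limma, adjusted p = 0.0168), a 1.70-fold decrease. Its maternal arrays gave -1.02 and -1.16, both just past 2-fold, a call that held in 3 of 7 alternatives. Another Hspa8 probe gave -0.87 ± 0.27 in fetal and -0.97 in maternal liver, so both probes fell together. The maternal minus fetal difference was -0.32 with an SE of 0.26 (limma, adjusted p = 0.552).

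Hspa2, an Hsp70 best known from male germ cells, had fetal ratios of -0.41, -0.62 and -0.26 (mean -0.43 ± 0.18, n = 3; limma, adjusted p = 0.0201). Its dimmer probe was not called, with a mean of -0.12 (limma over all passing probes, adjusted p = 0.147), so the call rests on 1 probe. The maternal arrays were both above 0, at 0.26 and 0.36. The difference of 0.74 between mother and fetus had an SE of 0.16 and missed the threshold (limma, adjusted p = 0.0737). Bag5, an exchange factor, rose in fetal liver by 0.41, 0.29 and 0.30 (mean 0.33 ± 0.07, n = 3; limma, adjusted p = 0.0126). Its maternal arrays gave 0.27 and 0.39.

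Hsp90ab1, the constitutive Hsp90, stayed near 0 on its brighter probe, with fetal ratios of 0.16, 0.0049 and -0.05 (limma, adjusted p = 0.655) and maternal arrays of -0.16 and -0.21. Its dimmer probe averaged -0.38 ± 0.28 over the fetal pairs. The remaining constitutive genes did not pass the fetal test. Their means were -0.24 for Dnajc7, 0.0032 for Dnajc2, 0.05 for Dnajb6, 0.07 for Hspa14, 0.10 for Bag1, 0.15 for Dnaja2 and 0.18 for Hspbp1. Without loess 9 of the 12 constitutive means were below 0, as were 11038 of 21097 means over all genes.

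Hspa4, an Hsp110-family exchange factor, gave opposite answers on different probes. Its brightest probe, A_51_P460676, rose by 0.39, 0.22 and 0.27 in the fetal pairs (mean 0.29 ± 0.09, n = 3; limma, adjusted p = 0.0202) and averaged 0.44 over the maternal arrays. A_51_P200477 had ratios of -1.71, -2.13 and -1.07 in the fetal pairs and -1.82 in the maternal pair. Its fetal mean was -1.64 ± 0.53 (limma over all passing probes, adjusted p = 0.00878; 14.3% of 30812 probes were called lower in that fit). This was a larger fall than that of Hsph1, at a probe with a mean log2 intensity of 9.4, against 12.0 for the brightest probe. A_52_P617817 averaged -0.37 ± 0.25 and A_52_P571987 averaged 0.12 ± 0.14.

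All 4 probes are annotated to Hspa4 on chromosome 11 in mm9. The falling probe lies at chr11:53073347-53073406, the farthest downstream in the direction in which the probes are annotated. The rising probe spans 514 bases of the genome, chr11:53075923-53076436, with only 60 bases of its own and therefore crosses a splice junction. The sequence of the falling probe, A_51_P200477, is not printed here. The rising probe and A_52_P617817, at chr11:53094143-53094202, are shown, with fetal means of 0.29 and -0.37.
A_51_P460676: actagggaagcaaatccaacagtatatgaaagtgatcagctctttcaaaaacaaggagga
A_52_P617817: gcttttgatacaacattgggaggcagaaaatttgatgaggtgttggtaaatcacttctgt
The Hspa4 value therefore depends on the probe: taking the mean over its probes gave -0.40 in place of 0.29.

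**Figure D3:**
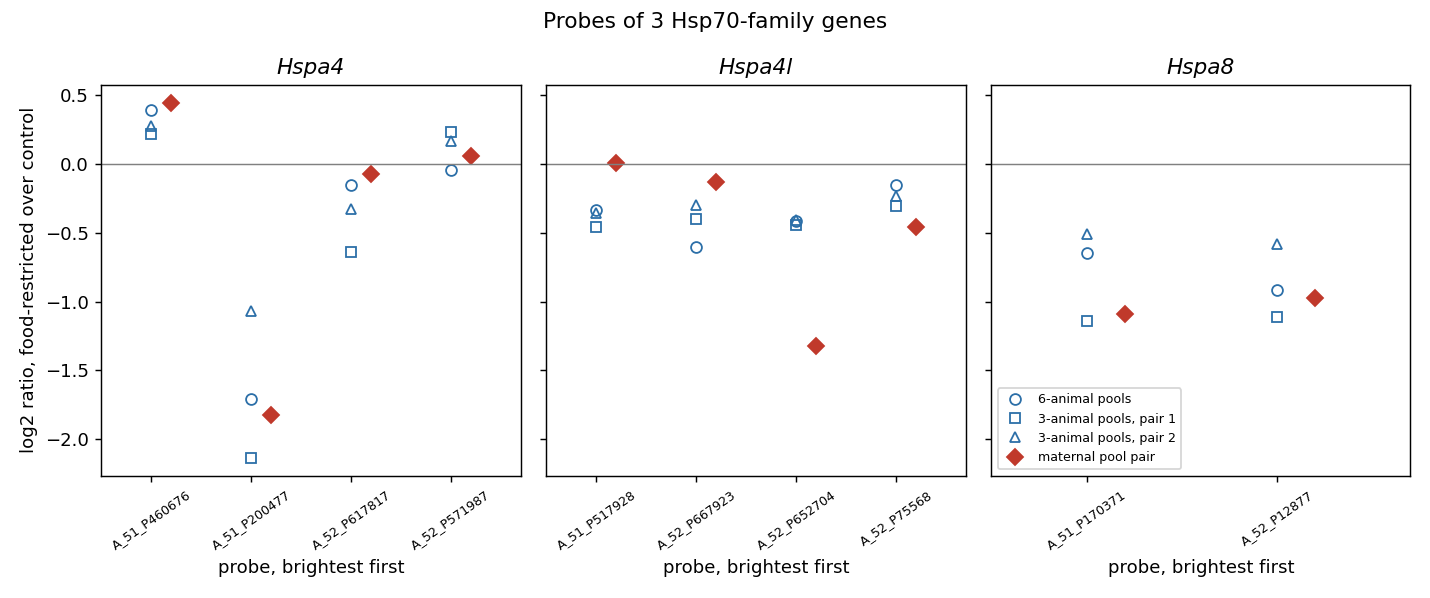
Log2 ratios of FR over control at each probe above background of Hspa4, Hspa4l and Hspa8, from the brightest probe on the left; open symbols are the 3 fetal pool pairs and filled diamonds the maternal pair. Hspa4 probe A_51_P200477 lies between -2.13 and -1.07 while the brightest probe lies above 0, and both Hspa8 probes lie below 0.

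Its relative Hspa4l fell in fetal liver at all 4 probes, with means from -0.43 to -0.23. In maternal liver these probes gave 0.0027, -0.14, -1.32 and -0.46. Probe A_52_P652704 was the low one there, while its fetal ratios of -0.42, -0.44 and -0.41 were close together.

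Of 7 mitochondrial chaperone genes, 3 were called higher and 1 lower in fetal liver, with a median of 0.10. The shares over all genes were 11.4% higher and 14.2% lower. Hspa9, the mitochondrial Hsp70, had fetal ratios of 0.40, 0.25 and 0.50 (mean 0.38 ± 0.12, n = 3; limma, adjusted p = 0.0152) and maternal arrays of 0.32 and 0.75. Its dimmer probe was not called, with a fetal mean of 0.11 (limma over all passing probes, adjusted p = 0.320). Its J-domain partner Dnaja3 had 0.33, 0.29 and 0.48 (mean 0.37 ± 0.10, adjusted p = 0.0136 in limma) and 0.52 on both maternal arrays. Dnajc11, of the mitochondrial membrane, fell to ratios of -0.45, -0.67 and -0.42 (mean -0.51 ± 0.14, n = 3; limma, adjusted p = 0.0101), with maternal arrays of -0.43 and -0.72. The Hsp60 and Hsp10 genes, Hspd1 and Hspe1, share 1 promoter region and averaged -0.05 and -0.12 in fetal liver, neither past the test. Dnajc15 averaged 0.10. Dnajc19, of the import motor, rose on its brightest probe (mean 0.25 ± 0.07, adjusted p = 0.0244 in limma), while its other 2 probes averaged -0.30 and -0.33. Without loess no mitochondrial gene was called higher.

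Of the small heat shock proteins besides Hspb1, which hold unfolded proteins without using ATP, 1 of 5 measured was called in fetal liver. Among all genes there, 11.4% were called higher and 14.2% lower. Hspb6 had ratios of 0.24, 0.42 and 0.16 (mean 0.27 ± 0.13, n = 3; limma, adjusted p = 0.0375). Its only probe was dim, with a mean log2 intensity of 7.2, though flagged above background on every array. Hspb8, which forms a complex with Bag3, had 0.13, 0.16 and 0.14 in the fetal pairs and -1.0045 and -0.36 on the maternal arrays. The maternal minus fetal difference of -0.83 had an SE of 0.09 (limma, adjusted p = 0.0190), with the maternal spread again assumed from the fetal pairs. Hspb2, Hspb7 and Hspb9 averaged between -0.05 and 0.05 in fetal liver.

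Of the 40 other genes measured in fetal liver, 9 were called higher and 8 lower, against 11.4% and 14.2% over all genes. The largest was Dnaja4, a cytosolic J protein, with ratios of -0.73, -0.45 and -0.52 (mean -0.57 ± 0.15, n = 3; limma, adjusted p = 0.00897), against -0.03 and -0.16 on the maternal arrays. Dnajb12, a J protein of the endoplasmic reticulum membrane, rose by 0.37, 0.50 and 0.50 (adjusted p = 0.00802 in limma) and had maternal arrays of 0.37 and 0.48. Dnajc12 averaged -0.45 ± 0.10, Dnajb2 -0.40 ± 0.07, Hspa4l -0.38 ± 0.07 and Dnajc30 0.38 ± 0.06 over the fetal pairs, all past the test. Dnajb2 was the lowest of these genes in maternal liver, at -0.83 and -0.91. The next largest maternal means were -0.64 for Dnajb14, -0.52 for Dnajc9, -0.48 for Hspa13, -0.47 for Hspbap1 and 0.46 for Bag4, none past 2-fold.

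In maternal liver, 76 heat shock genes were measured, and the calls were confined to 3 lower genes, Hsph1, Hsp90aa1 and Hspa8. None was called higher, and without loess Hsph1 alone was called. Over all 19507 genes measured there, 1.00% were called higher and 1.17% lower. The heat-inducible median was -0.84, with array medians of -1.07 and -0.61, and 7 of the 8 genes were below 0 on both arrays. The constitutive median was 0.12 and the median over all genes was 0.0034. At a limit of 1.5-fold, 7 heat shock genes were called lower and none higher, 5 of them heat-inducible; over all genes, 3.88% were called lower and 3.00% higher.

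The limma contrast of maternal minus fetal ratios, with the maternal spread assumed, called 3 of 76 heat shock genes, Hsp90aa1, Bag3 and Hspb8, all lower in mother. Over 18969 genes, 4.18% were called, so the share of heat shock genes was near that of all genes.

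**Figure D4:**
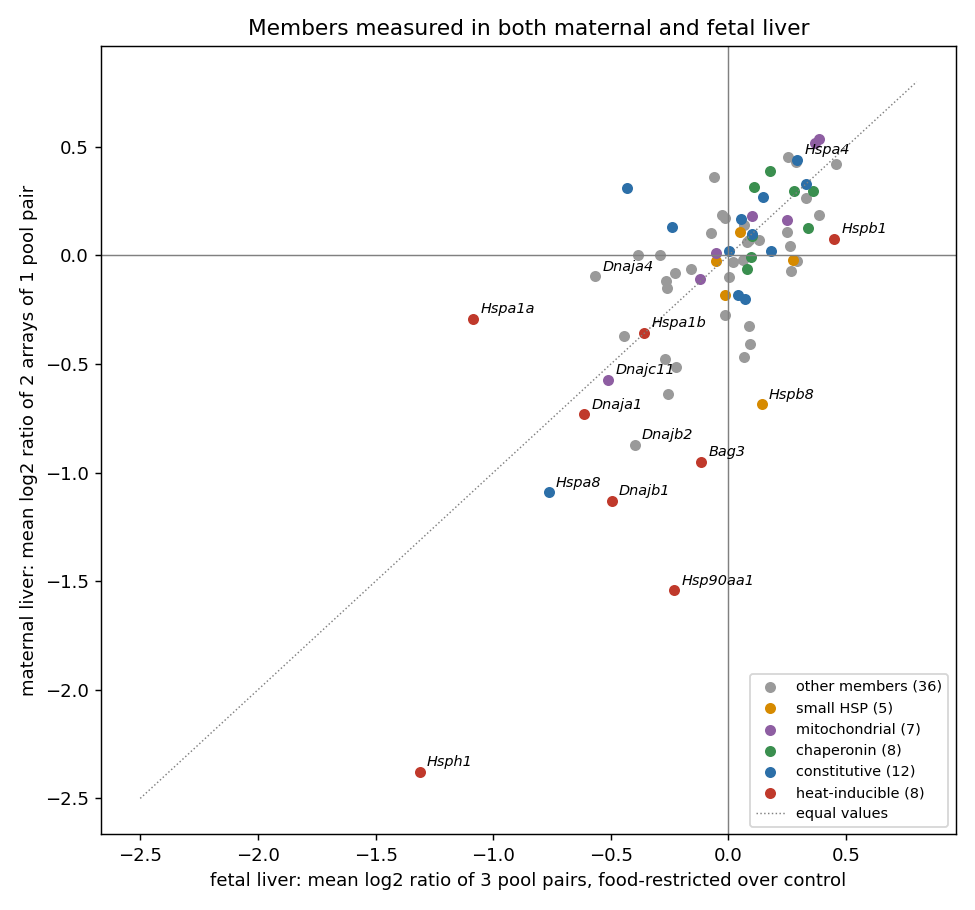
Mean log2 ratio in fetal liver (3 pool pairs, horizontal) against maternal liver (1 pool pair, vertical) for the 76 genes measured in both; colours mark the lists and the dotted line marks equal values. Hsph1 is lowest on both axes, and Hsp90aa1 lies at -1.54 in mother against -0.23 in fetus.

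Genes outside the name rule that belong to the same pathway were read from fixed lists. Of 12 genes around HSF1, 5 were called lower in fetal liver and none higher, with a median of -0.16. Over all genes tested there, 14.2% were called lower and 11.4% higher. HSF1 itself showed no called change in its mRNA, with fetal ratios of 0.10, 0.03 and -0.09 and maternal arrays of 0.15 and -0.05. Chordc1, an Hsp90-binding protein, fell, with fetal ratios of -0.93, -1.07 and -0.62 (mean -0.87 ± 0.23, n = 3; limma, adjusted p = 0.00770) and maternal arrays of -1.56 and -1.48. Serpinh1, the collagen chaperone Hsp47, fell as well, with fetal ratios of -0.81, -0.41 and -0.62 (limma, adjusted p = 0.0113) and maternal arrays of -1.44 and -1.16. Chordc1 and Serpinh1 were the 2 genes of the list past 2-fold in mother, where 11 of 12 had means below 0 and the median was -0.44; without loess neither reached it. Ahsa2 and Ahsa1, of the activators of Hsp90's ATPase, averaged -0.39 and -0.27 in fetal liver, both past the test. Stip1, which joins Hsp70 to Hsp90, averaged -0.26 in fetal liver (limma, adjusted p = 0.0187), with maternal arrays of -0.91 and -0.53. Fkbp4, an Hsp90 cochaperone, averaged -0.06 in fetal liver and -0.81 on both maternal arrays, short of 2-fold.

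Of 10 other Hsp90 and Hsp70 cochaperone genes, 3 were called lower and 1 higher in fetal liver, against 14.2% and 11.4% over all genes. Ppid, the cyclophilin that binds Hsp90, had ratios of -0.99, -0.96 and -0.72 (mean -0.89 ± 0.15, n = 3; limma, adjusted p = 0.00507), with maternal arrays of -0.65 and -0.66. St13, the Hsp70-interacting protein Hip, had ratios of -0.61, -0.40 and -0.50 (adjusted p = 0.00805 in limma), and its maternal mean was -0.55. Sugt1 averaged -0.30 and Cdc37l1 0.39, both called. Tomm34 averaged -0.18, without a call.

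Of 10 genes that act with the chaperonin, 1 was called in each direction in fetal liver, against 11.4% higher and 14.2% lower over all genes. Tcp1, the first subunit of the TRiC ring, had fetal ratios of 0.14, 0.19 and 0.23 (mean 0.19 ± 0.05, n = 3; limma, adjusted p = 0.0420) and maternal arrays of 0.29 and 0.73. Txndc9 averaged -0.26 and was called lower. Pdcl3 averaged -0.23, Pfdn2 0.16 and Pdcl -0.12, none called. Of 6 mitochondrial partners, Grpel2, an exchange factor for Hspa9, and Hscb, of iron-sulfur cluster assembly, were called higher with means of 0.32 and 0.42. Grpel2 averaged 0.75 on the maternal arrays. Clpp, Trap1, Grpel1 and Lonp1 had fetal means of 0.16, -0.14, -0.08 and 0.12, none called.

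Markers of other cells moved with diet in the same fetal pools, where 11.4% of all genes were called higher and 14.2% lower. Of 7 granulocyte markers 6 were called lower (median -0.59), with mean log2 levels of 15.9 to 16.1 in control and 15.3 to 15.4 in FR pools over 4 genes. Of 7 B-lineage markers 5 were called lower (median -0.81), with mean levels of 10.1 to 10.2 in control and 9.2 to 9.7 in FR pools over 6 genes. Of 6 hepatocyte markers 4 were called lower. Of 7 erythroid markers, 1 was called lower, Klf1 at -0.47, while 4 had means above 0 and the median was 0.26. Muscle markers had a median of 0.81 in the 6-animal fetal pair, against -0.11 and 0.10 in the 3-animal pairs. In maternal liver no marker of these lists reached 2-fold on both arrays, and 4 of 5 erythroid markers were below 0 on both, with a median of -0.78. The part of cell composition in the fetal and maternal heat shock values was not tested.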

How the data were processed

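Probe signals are intensities that the authors' scanner software, Agilent Feature Extraction, wrote per the file headers: version 9.5.3.1 on slide 1 and 11.0.1.1 on slide 2. The deposited series table holds log10 ratios of red over green, which equal the processed signals of the same arrays within 5e-08. The mean pixel signal was used on slide 1 and the median pixel signal on slide 2. Control RNA and FR RNA were told apart by the dyes in the titles. Background was corrected with normexp (offset 50) and dyes with loess in limma 3.58.1 (R 4.3.3), control spots had weight 0, and population outliers were dropped. Both arrays of a dye exchange were averaged. A probe counted if its FR signal, or its control signal, was flagged as well above background on all arrays entering a result. The brightest such probe stood for its gene. Genes were named through RefSeq accessions or symbols (32817 of 41174 probes). P-values were adjusted by Benjamini-Hochberg over all genes at 0.05. The maternal minus fetal contrast assumes that the lone maternal pair varies like the fetal pairs. The number of arrays limits the precision. The fits were run on simulated data with independent pool pairs, equal spread in mother and fetus and added changes of 2-fold or more. That run does not test shared animals, the maternal spread or smaller changes. The genes, lists and tests were chosen with earlier results of these data known. Named were all genes of the 5 lists of heat shock genes, the 6 largest others in fetus and in mother, and up to 4 per pathway list and comparison, and 1 gene of the HSF1 list, left out of all its counts, is not reported here. Alternatives tried are in the closing section.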

Additional observations from a re-analysis of the deposited data

Results flagged for a closer look

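The limma contrast of maternal minus fetal ratios called 3 named heat shock genes, each lower in mother. It has no maternal replicate and takes the maternal spread from the fetal pairs, so it does not show that the responses differ. Hsp90aa1 had a maternal minus fetal log2 ratio of -1.31 (adjusted p = 0.0189), Bag3 of -0.83 (adjusted p = 0.0332) and Hspb8 of -0.83 (adjusted p = 0.0190). Their maternal arrays were apart by more than the fetal pairs for Bag3 (-1.30 and -0.60) and Hspb8 (-1.0045 and -0.36), and the contrast does not use that gap. Each of the 3 differences was called in 7 of its alternatives, of 10 for Hsp90aa1 and Hspb8 and of 11 for Bag3. Each was below 0 in all of them.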

How the results depend on the processing

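Of the named heat shock genes, 26 were called in fetal liver, and 24 of them kept their sign in every alternative that measured them. In every alternative that measured them and called any gene, 10 were called. Of those 10, Hsph1, Hspa8, Dnajb1, Dnajb2 and Dnajc12 were not measured without non-uniform spots. Main values were 20 higher and 16 lower genes, 3 lower in mother and 3 differences. Leaving out 1 fetal pair gave 0 to 18 higher, 0 to 20 lower and 0 to 5 differences, and a constitutive median of 0.052 to 0.078; the zeros came without the 6-animal pair, which also left 0 of all genes called and 16 heat shock differences at an unadjusted p under 0.05 in limma. Scaling between arrays gave 0 higher, 0 lower and 0 differences in limma (25, 16 and 14 at an unadjusted p under 0.05), with fetal medians of 0.21 for chaperonin and 0.077 for constitutive genes. Without loess there were 2 higher, 1 lower in mother and 0 differences (8 unadjusted), with fetal medians of 0.016 for chaperonin and -0.082 for constitutive genes. Leaving out non-uniform spots kept 47 heat shock genes, with 9 higher and 0 differences (8 unadjusted); 4 heat-inducible, 2 chaperonin and 4 constitutive genes remained in fetus, with medians of -0.17, -0.19 and -0.21, and the maternal medians were -0.32, -0.23 and 0.13. Deposited log ratios gave 5 differences, a heat-inducible median of -0.56 and a constitutive one of 0.042. The mean over probes gave -0.31 and 0.038. The unadjusted counts in this section stand without a share over all genes, so they do not show an excess among heat shock genes. An offset of 10 gave 5 differences, and the 1.5-fold limit gave 7 lower in mother. The maternal constitutive median of 0.12, whose 2 arrays were nearly equal, was 0.11 from deposited ratios, 0.080 from the mean over probes, 0.12 from median signals (an alternative added after the data were seen, like the fit over all probes), 0.11 without loess, 0.12 at offset 10 and 0.13 after scaling. Among genes called in either analysis, signs turned for Cct4 (-0.45), Dnajc19 (-0.30), Grpel1 (0.87), Grpel2 (-0.0048), Hspa4 (-1.64) and Sugt1 (0.26) without non-uniform spots, and for Dnajc19 (-0.13), Grpel1 (0.24) and Hspa4 (-0.40) with the mean over probes, where other probes entered. Of all 80 measured heat shock genes, 48 had fetal means above 0, and 33 without loess. Over all 21097 genes, 11224 were above 0, and 10059 without loess. Over all genes the main 2399 higher and 3005 lower became 714 and 2259 without loess, 1337 and 1831 without non-uniform spots, 0 and 0 after scaling, and 1252 and 1507 without the first 3-animal pair. In mother, 196 higher and 229 lower became 391 and 488 from deposited ratios, 68 and 58 without loess, 131 and 149 without non-uniform spots, and 586 and 756 at 1.5-fold. The 792 differences became 1661 from deposited ratios, 225 without loess, 209 without non-uniform spots and 92 after scaling. Pool pair as a random block over 6 arrays gave 22 higher and 20 lower, with 3316 higher and 3991 lower over all genes. It estimated a correlation of 0.0365 between the arrays of a pair. That fit thus treats the 2 dye-exchanged arrays of the same pools as nearly independent, so its larger counts do not come from more replicates. Slide as a random block could not be fitted, since only 1 slide holds 2 fetal pairs; the values within slide 2 are those without the 6-animal pair. The causes of these moves were not tested beyond the probes and samples that each alternative leaves out. FR and control RNA of a pool pair were already compared within arrays. No paired analysis was possible because mother and fetus share fewer than 2 replicate numbers.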
